A study of Mus musculus with 7 samples.

Results

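Integrins are the cell surface receptors that tie a cell to the matrix around it. This account follows 10 integrin subunit genes in sorted mouse liver endothelial cells, namely the alpha chains Itga1, Itga2b, Itga4, Itga5, Itga6, Itga9 and Itgav and the beta chains Itgb1, Itgb3 and Itgb5. They were chosen by name, with earlier results of these data known, and are 10 of the 52636 genes in the deposited count table. All 10 passed the filter on low counts. RNA-seq covered 3 control libraries and 4 c-Maf KO libraries, c-Maf being a transcription factor encoded by Maf and KO standing for knockout. The labels give the tissue as liver, the source as its endothelium and the genotype as control or c-Maf KO. They name no age, strain or treatment, and they do not say which Cre or promoter drove the deletion or whether each library came from its own animal, so p-values speak only of variation among the 7 libraries, some of which may be technical.

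Each integrin on the cell surface is a pair of 1 alpha and 1 beta chain. The alpha chain largely sets what is bound: α1 pairs with β1 to bind collagens, α6 binds laminins, α5, α8, αv and αIIb (the product of Itga2b) bind ligands with an arginine-glycine-aspartate motif, and α4 and α9 bind cell adhesion molecules and matrix proteins such as tenascin C. The β1 chain is shared by most of these pairs, β3 pairs with αv or αIIb, and β5 pairs with αv. In liver sinusoids, where endothelium lacks a dense basement membrane, integrins link the endothelial cells to the sparse matrix beneath them.

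Maf stood at 1664, 2088 and 2147 CPM (counts scaled to library size) in controls 1 to 3 and at 28.9, 158.9, 124.5 and 37.7 CPM in KO 1 to 4. Which exons were deleted is not given in the sources used here. All 11 pan-endothelial and all 7 sinusoidal markers examined had counts, and 5 of the former and 6 of the latter fell. Of all genes tested 22.2% fell. Among the pan-endothelial markers 1, Egfl7, rose and 5 did not pass, and 1 sinusoidal marker did not pass. Summed levels of the former and the latter were 20590 to 22750 CPM and 27520 to 30940 CPM in controls. In KO libraries they were 13490 to 18010 and 6586 to 10520 CPM. Libraries also differed in transcripts of other cells. The summed level of 9 hepatocyte markers was 273.6 to 304.1 CPM in controls and 1302, 331.2, 408.6 and 641 CPM in KO 1 to 4. Erythroid markers were likewise highest in KO 1 and KO 4. Control 3 was highest in 10 stellate cell and fibroblast markers at 167.3 CPM. Of those 10 markers 5 fell, 5 did not pass and 0 rose, with a median log2 fold change of -1.53. The median level of 15 genes induced by tissue dissociation was 85.1 to 113% of the control mean in controls and 239.5, 212, 118.2 and 150.5% in KO 1 to 4. The part of these differences in the values below was not tested. In bulk RNA, fewer cells of a type and less transcript per cell cannot be told apart.

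The start sites of 3 subunit genes that fell together (values below) lie where the reference annotations coincide, and the bases before them are shown to let their makeup be compared. The sequences are from RefSeq on GRCm38.p6, read 5′ to 3′ on the strand of the gene, and end at the base before the start. Capitals mark CG dinucleotides, of which they hold 10, 18 and 21.
Itga1, chr13:115101965-115102214, minus strand: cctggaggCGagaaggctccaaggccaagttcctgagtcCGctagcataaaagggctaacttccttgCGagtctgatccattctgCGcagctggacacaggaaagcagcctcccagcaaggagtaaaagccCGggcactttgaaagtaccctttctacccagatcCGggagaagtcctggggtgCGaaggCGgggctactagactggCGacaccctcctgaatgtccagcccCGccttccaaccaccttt
Itgav, chr2:83724147-83724396, plus strand: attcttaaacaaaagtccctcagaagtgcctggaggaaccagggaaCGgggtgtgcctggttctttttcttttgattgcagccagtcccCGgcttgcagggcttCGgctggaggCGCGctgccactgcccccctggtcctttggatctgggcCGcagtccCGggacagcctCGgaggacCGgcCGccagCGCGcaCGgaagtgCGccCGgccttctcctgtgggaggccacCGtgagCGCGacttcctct
Itgb1, chr8:128685404-128685653, plus strand: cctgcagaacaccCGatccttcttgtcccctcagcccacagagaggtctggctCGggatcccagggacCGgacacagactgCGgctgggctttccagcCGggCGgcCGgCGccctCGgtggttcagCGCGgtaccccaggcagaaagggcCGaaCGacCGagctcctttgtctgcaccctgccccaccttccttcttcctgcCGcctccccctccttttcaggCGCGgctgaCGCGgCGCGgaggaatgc

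The RefSeq windows reach from 250 bases before to 50 after a start, and 8 of the 10 genes had one. The one for Itga9 lies 105002 bases inside the annotated gene. Counted over the whole window, Itgb1 held 27 CG dinucleotides, more than 84.5% of 32851 promoter windows, and Itgav held 24, while Itga1 held 12 and Itga2b, which rose, 6. A part of the Maf recognition element, TGCTGAC, was looked for on both strands and occurs in 4.67% of all windows. It was found in none of the 8 windows, which says only that these letters are not there. The AP-1 site TGACTCA, which overlaps the full Maf element and occurs in 5.2% of windows, was found in the internal Itga9 window only.

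Of the 10 subunit genes, 2 rose, 4 fell and 4 did not pass the test in the KO. The genes for α6 and αIIb, Itga6 and Itga2b, rose 2.94- and 2.34-fold. Itga9, Itga1, Itgb1 and Itgav fell 6.32-, 3.32-, 1.80- and 1.71-fold, so the alpha chain most abundant in control endothelium and the shared β1 chain were both lower. Itga5, Itga4, Itgb3 and Itgb5 did not pass. Rose and fell refer to an adjusted p under 0.05 in edgeR's quasi-likelihood test over all 15512 genes tested, of which 45.2% passed, 23% as rises and 22.2% as falls. The groups' libraries did not overlap in 7 of the 10 genes, against 50.3% of all genes tested. The median log2 fold change of the 10 was -0.51, against 0.0433 for all genes tested.

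**Figure D1:**
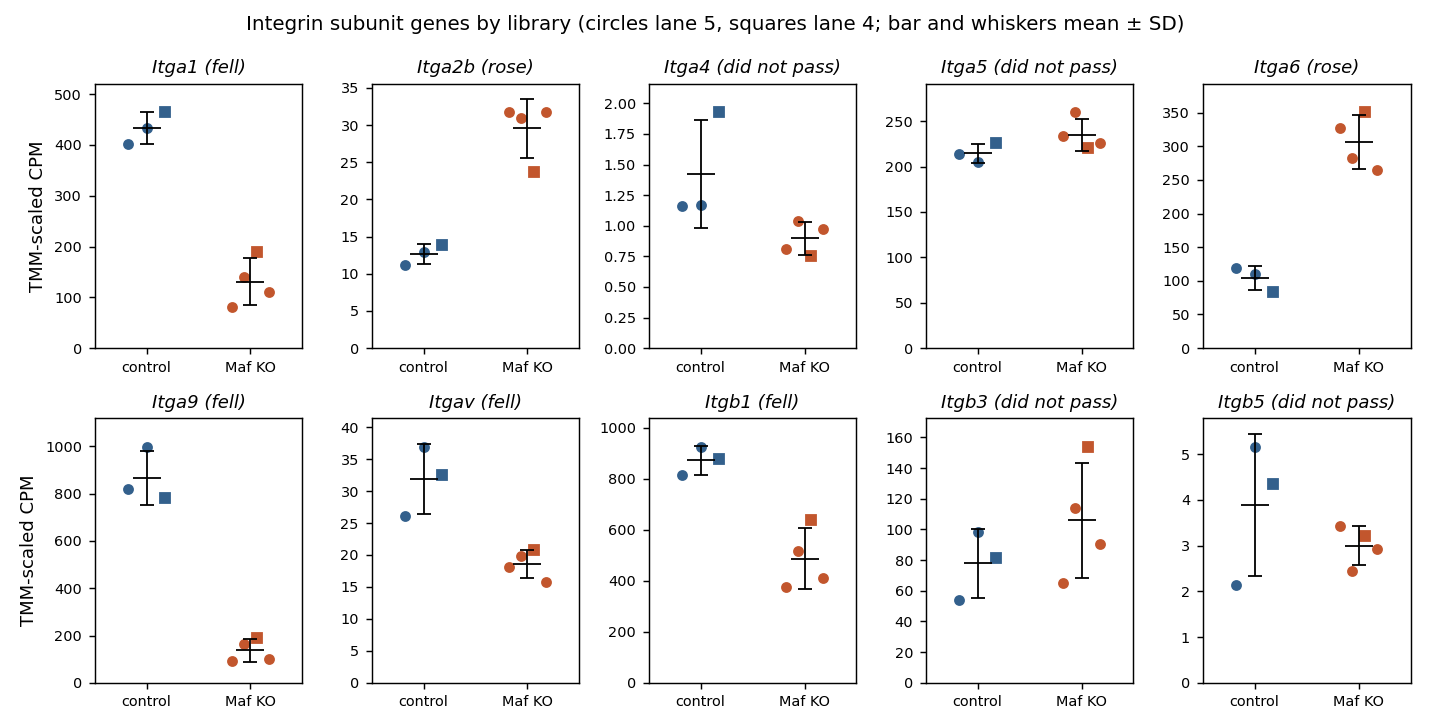
Level of each of the 10 subunit genes by library, in TMM-scaled CPM on axes that start at 0, with the mean and SD of 3 control and 4 Maf KO libraries; circles are lane 5 and squares lane 4. Itga9 and Itga1 lie far below the controls in all 4 KO libraries, Itga6 and Itga2b far above, and the groups overlap in Itga5, Itgb3 and Itgb5.

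Itga9 (ENSMUSG00000039115, chromosome 9 from 118606690 to 118901003, plus strand, GRCm38, protein-coding) encodes α9, which pairs only with β1. Controls 1 to 3 held 819.7, 998.0 and 782.8 CPM, against 92.2, 163.2, 191.5 and 101.9 CPM in KO 1 to 4. Every KO library lay far below every control, and KO 2 and KO 3 were higher than KO 1 and KO 4. Its log2 fold change of -2.66 (SE 0.255) had an adjusted p of 7.64e-05, and 100 of the 3448 genes that fell, itself included, fell at least as much.

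Itga1 (ENSMUSG00000042284, chromosome 13 from 114953096 to 115101964, minus strand) encodes α1, the collagen-binding chain. It was at 401.7, 434.4 and 465.0 CPM in controls and at 80.6, 140.4, 190.2 and 111.2 CPM in KO 1 to 4. The lowest control was more than double the highest KO library, and the order of the KO libraries was that of Itga9. With an SE of 0.244, its log2 fold change was -1.73 (adjusted p = 0.000587). Of its 18599 exon bases 685 are shared with the same-strand gene model Gm49395, which had 486 counts over the 7 libraries against 48966 for Itga1.

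The shared beta chain gene Itgb1 (ENSMUSG00000025809, chromosome 8 from 128685654 to 128733200, plus strand) fell less. It held 813.1, 924.8 and 877.9 CPM in controls, and 374.5, 517.0, 639.3 and 411.7 CPM in KO 1 to 4. The groups did not overlap, KO 3 came nearest to the controls, and the spread was wider among KO libraries (SD 118.9 CPM) than among controls (SD 56.1 CPM). Its log2 fold change was -0.84 (SE 0.181, adjusted p = 0.00515). Itgav (ENSMUSG00000027087, chromosome 2 from 83724397 to 83806916, plus strand), whose product αv pairs with β1, β3 and β5, was at 26.0, 36.9 and 32.5 CPM in controls and 18.2, 19.9, 20.7 and 15.8 CPM in KO 1 to 4. The lowest control was above the highest KO library. Itgav had a log2 fold change of -0.77 (SE 0.139, adjusted p = 0.00207).

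In all 4 genes that fell, the higher KO libraries were KO 2 and KO 3, and the lower ones KO 1 and KO 4. The same was true of 64.6% of all genes that fell and of Maf itself. KO 1 and KO 4 were also the KO libraries with the most hepatocyte transcript. The part of that difference in these falls was not tested. Each of the 4 genes also fell in the fit without KO 1 and in the fit without KO 4. Each of these fits keeps the other of the KO 1 and KO 4 libraries, so they do not test that part.

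Itga6 (ENSMUSG00000027111, chromosome 2 from 71745616 to 71858416, plus strand), for the laminin-binding α6, went the other way. Controls 1 to 3 held 119.3, 109.5 and 83.6 CPM, and KO 1 to 4 held 327.3, 282.5, 350.9 and 264.3 CPM. The lowest KO library was more than double the highest control. The log2 fold change of Itga6 was 1.56, with an SE of 0.155 and an adjusted p of 9.07e-05. The gene of the laminin receptor chain rose while that of its partner β1 fell. Itgb4, for its other partner β4, was low at 3.82 ± 0.154 CPM in controls and 3.83 ± 0.584 CPM in the KO. It did not pass (adjusted p = 0.981).

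Itga2b (ENSMUSG00000034664, chromosome 11 from 102453297 to 102470122, minus strand) is best known as the platelet fibrinogen receptor chain, paired with β3. Its levels were 11.1, 12.9 and 13.9 CPM in controls and 31.8, 31.0, 23.7 and 31.8 CPM in KO 1 to 4. The groups were far apart, with KO 3 below the other KO libraries. Itga2b had a log2 fold change of 1.23 (SE 0.135) at an adjusted p of 0.000154. Itgb3 (ENSMUSG00000020689, chromosome 11 from 104608000 to 104670476, plus strand), for its partner β3, held 53.7, 98.4 and 81.45 CPM in controls and 65.2, 113.9, 153.9 and 90.6 CPM in KO 1 to 4. These ranges overlapped and the gene did not pass (log2 fold change 0.44, SE 0.287, adjusted p = 0.231).

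Platelet and megakaryocyte markers moved with Itga2b in part. Of 11 such markers 9 were tested, and 4 rose and 2 fell, so 66.7% passed, against 45.2% of all genes tested. The 4 that rose, Ppbp, Gp5, Gp9 and Gp1bb, were low, with Ppbp at 0.439 to 0.625 CPM in controls and 1.14 to 5.05 CPM in the KO. In controls 1 to 3, Gp1bb had only 3, 2 and 4 counts, Gp9 4, 0 and 9, and Gp5 9, 2 and 2. These levels are near the limit of detection, so percentages of their control means are uncertain. Pf4, a defining platelet chemokine gene, stood at 4.91 ± 1.73 CPM (SD, n = 3) in controls and 3.31 ± 0.615 CPM (SD, n = 4) in the KO and did not pass (adjusted p = 0.103), but it fell in 4 of 18 alternative fits, among them lane 5 alone (adjusted p = 0.0466) and the fit without control 3 (adjusted p = 0.0399). Gp9 did not pass without control 1 (adjusted p = 0.0527), nor Gp5 without control 3 and KO 1 (adjusted p = 0.0509). The summed level of the 11 was 82.4 to 95.7 CPM in controls and 49.98 to 68.3 CPM in the KO, most of it from Alox12, which fell. In percent of the control mean, Itga2b was at 251.4, 245.3, 187.5 and 251.3 in KO 1 to 4, where Ppbp was at 612.6, 207.7, 307.7 and 919.8. Gp1bb was at 519.1, 451.3, 355.9 and 433.1, and Gp9 at 608.8, 433.8, 403.9 and 786.3. Gp1ba, which fell like Alox12, was at 37.6, 62.5, 76.4 and 60.3. KO 3 was the lowest KO library in Itga2b, Gp1bb, Gp9, Pf4 and Tubb1, and KO 2 in Ppbp and Gp5. In Gp1ba, Alox12 and F2rl3 the lowest was KO 1. The part of platelet transcript in the rise of Itga2b was not tested.

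**Figure D2:**
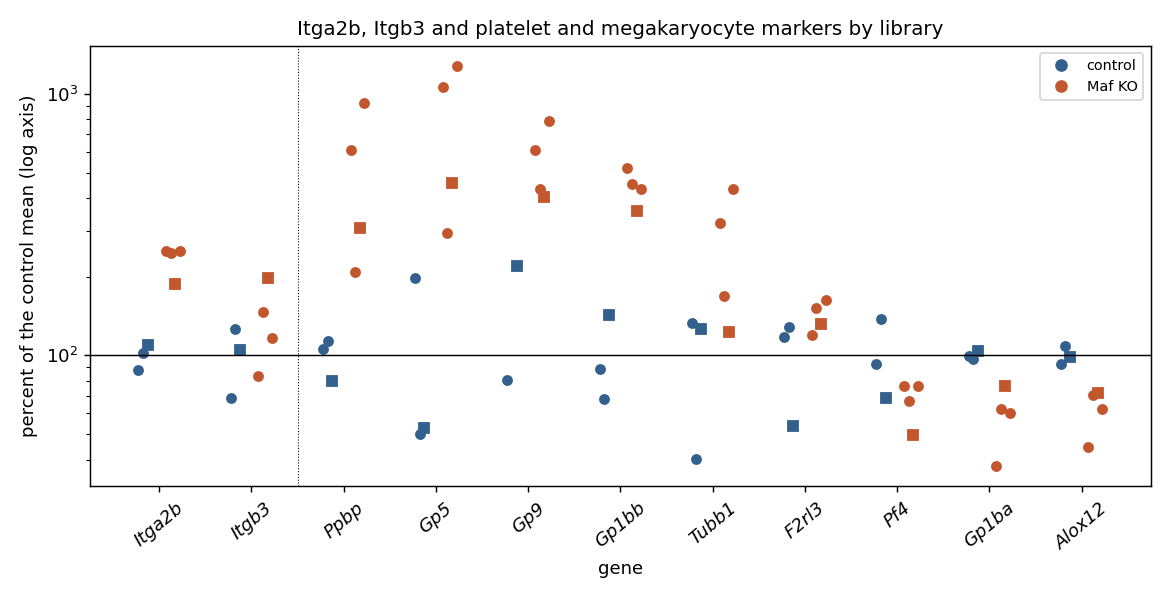
Itga2b and Itgb3 beside 9 tested platelet and megakaryocyte markers, each library as percent of the control mean on a log axis (circles lane 5, squares lane 4; Gp9 in control 2, at 0, cannot be drawn). Itga2b sits between 187.5 and 251.4% in the 4 KO libraries. Gp1bb lies there between 355.9 and 519.1%, Gp9 between 403.9 and 786.3% and Ppbp between 207.7 and 919.8%. Gp1bb and Gp9 had at most 9 counts in any control. Pf4, Gp1ba and Alox12 lie below 100% in the KO libraries. Of these libraries KO 3 is lowest in Itga2b, Gp1bb, Gp9, Pf4 and Tubb1, and KO 1 in Gp1ba, Alox12 and F2rl3.

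Among the remaining subunits that did not pass, Itga5 was the most even between the groups. This gene (ENSMUSG00000000555, chromosome 15 from 103344286 to 103366763, minus strand) encodes the fibronectin receptor chain α5. It held 213.3, 204.5 and 225.6 CPM in controls and 233.6, 260.1, 219.9 and 225.5 CPM in KO 1 to 4, which overlap (log2 fold change 0.13, SE 0.0959, adjusted p = 0.291). With library totals or upper-quartile factors in place of the TMM scaling it passed, at 0.39 (adjusted p = 0.00786) and 0.26 (adjusted p = 0.0474). Those scalings move the median log2 fold change of all genes to 0.308 and 0.169.

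Itgb5 (ENSMUSG00000022817, chromosome 16 from 33829665 to 33949338, plus strand), for the αv partner β5, was low at 2.15, 5.16 and 4.34 CPM in controls and 3.43, 2.44, 3.20 and 2.92 CPM in the KO (adjusted p = 0.318). Without control 1, its lowest library, it fell, with a log2 fold change of -0.67 (adjusted p = 0.0388). Itga4 (ENSMUSG00000027009, chromosome 2 from 79255426 to 79333123, plus strand), for the leukocyte homing chain α4, was near the bottom of the range at 1.17, 1.17 and 1.93 CPM in controls and 0.814, 1.04, 0.757 and 0.974 CPM in the KO. All KO libraries were below all controls, yet the gene did not pass (log2 fold change -0.66, SE 0.275, adjusted p = 0.0778). It shares 1124 exon bases with Cerkl on the opposite strand, and the strand setting of the counting is not given in the sources used here.

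By the column names, lane 4 held control 3 and KO 3 while lane 5 held the remaining 5 libraries. Within lane 5, Itga9, Itga1, Itgb1 and Itgav had log2 fold changes of -2.98, -1.96, -1.05 and -0.86, and Itga6 and Itga2b 1.30 and 1.35. All 6 passed there. Lane 4 allows no test, and its single KO library stood at 0.245, 0.409, 0.728 and 0.638 times its control for the 4 that fell, and at 4.20 and 1.71 times for Itga6 and Itga2b. The direction was the same in both lanes for each of the 6.

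**Figure D3:**
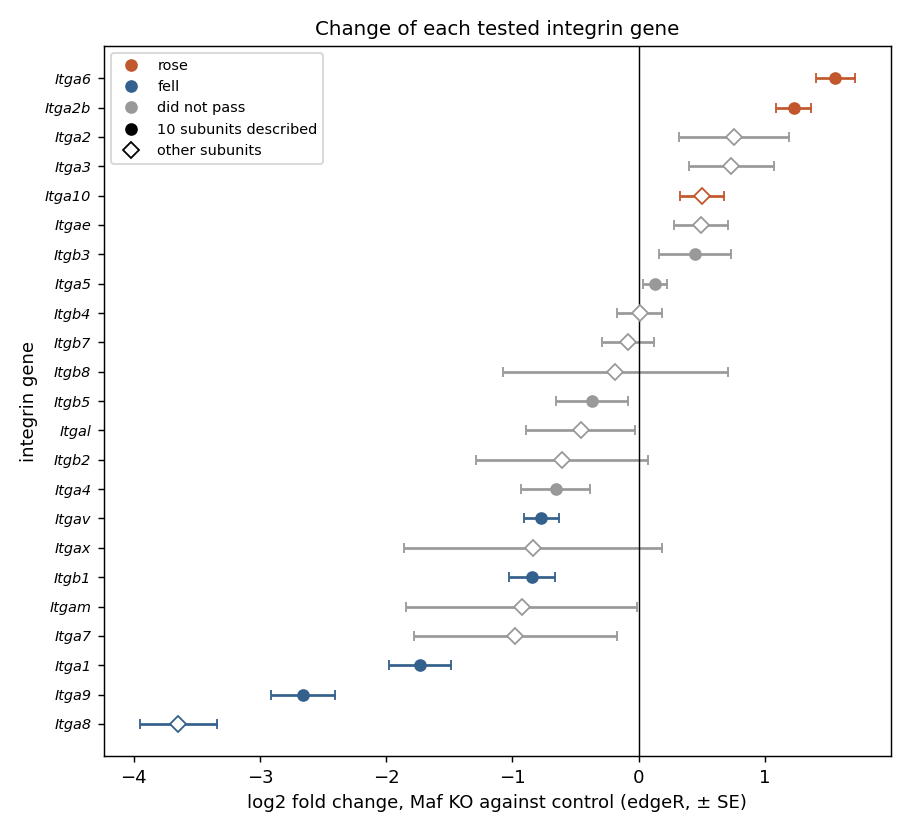
Log2 fold change with its SE (horizontal axis) of the 23 integrin genes that could be tested, ordered by size; filled circles are the 10 subunits described and open diamonds the other 13. The falls run from Itgav (-0.77) to Itga8 (-3.64), and Itga6 (1.56) and Itga2b (1.23) stand highest.

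Of the 16 other integrin subunit genes, 13 could be tested, and 1 rose, 1 fell and 11 did not pass (median log2 fold change -0.18). Thus 15.4% passed, against 45.2% of all genes tested. The fall was that of Itga8 (ENSMUSG00000026768, chromosome 2 from 12106632 to 12301922, minus strand), for α8, a β1 partner of the same ligand class as α5 and αv. Levels were 246.9, 246.9 and 257.1 CPM in controls and at 13.1, 27.45, 27.9 and 11.6 CPM in KO 1 to 4. The groups are far apart, and the controls differ by little. The log2 fold change of -3.64 (SE 0.308, adjusted p = 4.01e-05) was larger than that of any of the 10 subunits, and 22 genes, itself included, fell at least as much. The rise was that of Itga10, from 5.79 ± 0.498 to 8.20 ± 1.43 CPM (log2 fold change 0.50, adjusted p = 0.0406), and it did not pass in 9 of 18 alternative fits (adjusted p up to 0.144). Itga11, Itgad and Itgb6 had at most 4 counts in any library and were not tested.

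Levels of different genes were compared as CPM per kilobase of annotated exon (CPM per kb). In controls the order was Itgb1 (213.6 ± 13.7, SD, n = 3), Itga9 (112.7 ± 14.97), Itga5 (43.5 ± 2.15), Itga1 (23.3 ± 1.70), Itgb3 (13.2 ± 3.83), Itga6 (11.5 ± 2.04), Itgav (2.96 ± 0.510), Itga2b (2.32 ± 0.253), Itgb5 (1.09 ± 0.439) and Itga4 (0.102 ± 0.0316). Neighbours in this order did not overlap over the 3 libraries, except Itgb3 with Itga6 and Itgav with Itga2b. In the KO the order was Itgb1 (119 ± 29.1, SD, n = 4), Itga5 (47.6 ± 3.60), Itga6 (33.9 ± 4.41), Itgb3 (17.95 ± 6.38), Itga9 (17.8 ± 6.23), Itga1 (7.02 ± 2.51), Itga2b (5.42 ± 0.719), Itgav (1.74 ± 0.202), Itgb5 (0.844 ± 0.120) and Itga4 (0.0641 ± 0.00956). Here Itgb3 overlapped Itga9, and Itga1 overlapped Itga2b. Itga9 moved from rank 2 to rank 5 and Itga6 from rank 6 to rank 3. These ranks depend on the gene length used. With the longest transcript of each gene as its length, Itga6 came before Itga5 in the KO.

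The make-up of alpha chain transcript changed accordingly, when each gene's CPM per kb was taken as a share of the sum over all 18 alpha genes. Itga9 made up 47.1, 51.5 and 44.5% in controls 1 to 3, and 10.5, 16.2, 18.4 and 11.8% in KO 1 to 4. The share of Itga6 was 5.84, 4.82 and 4.05% in controls and 31.7, 23.9, 28.7 and 26.2% in the KO. Itga5, whose own level did not pass, went from 18.5 ± 1.85% (SD, n = 3) to 38.8 ± 3.99% (SD, n = 4). Itga8 made up 14.5 ± 1.03% of alpha transcript in controls and 2.15 ± 0.774% in the KO, and Itga1 9.92 ± 0.894 and 5.61 ± 1.54%. No test was run on these shares; an exact two-sided permutation test of 3 against 4 libraries gives at the smallest p = 0.0571. With the longest transcript in place of the union of exons as the gene's length, Itga6 (39.9%) came before Itga5 (30.0%) in the KO, while Itga9 remained highest in controls (42.0%).

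Beta chain transcript changed less in make-up. Itgb1 was 93.6, 89.4 and 90.5% of the sum over 8 beta genes in controls and 84.5, 82.85, 82.5 and 81.9% in the KO. Itgb3 was 5.55 ± 1.17% in controls and 12.25 ± 1.49% in the KO. The sum of alpha genes was 235.5 ± 14.2 CPM per kb in controls and 123.3 ± 11.8 in the KO, and that of beta genes 234.7 ± 20.4 and 143.6 ± 36.0. Both sums were lower in each KO library than in each control.

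**Figure D4:**
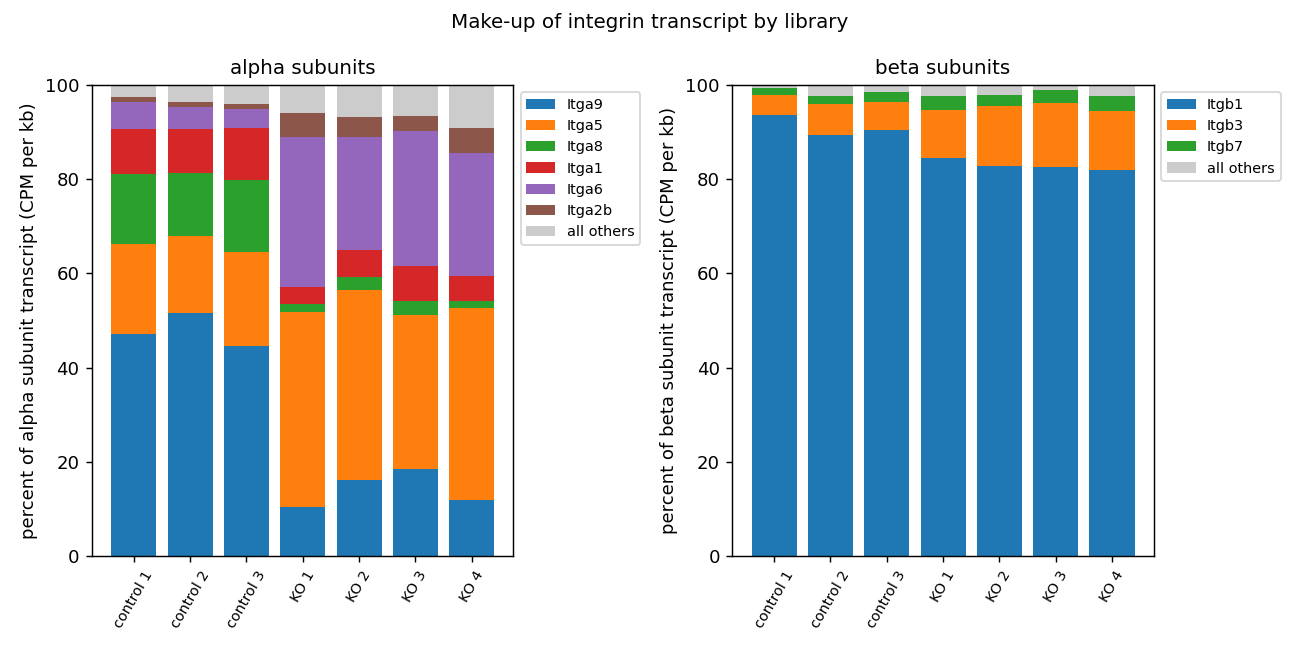
Share of each alpha gene (left) and beta gene (right) in the summed CPM per kb of its kind, in percent, for each of the 7 libraries. Itga9 takes 44.5 to 51.5% of the left columns in controls and 10.5 to 18.4% in the KO, and Itgb1 takes 81.9 to 93.6% of the right columns.

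Genes that act on integrin activation, in either direction, or link integrins to actin were taken as a list of 33, of which 32 were tested. The list mixes activators with inhibitors, so its counts of rises and falls give no direction of activation. Of these 6 rose, 12 fell and 14 did not pass (median log2 fold change -0.25). Thus 56.25% passed, against 45.2% of all genes tested. With library totals in place of TMM, 7 fell. The largest fall was that of Tns3, a tensin that binds the tails of beta chains, whose mean was 619.3 ± 55.02 CPM in controls and 119.2 ± 28.9 CPM in the KO, a log2 fold change of -2.38 (SE 0.185) at an adjusted p of 2.91e-05. Vcl, for the talin-binding actin linker vinculin, fell 1.89-fold, the adaptor gene Crk 1.63-fold and Parvb, for a parvin that works with integrin-linked kinase, 1.60-fold. Vcl shares 2090 exon bases with Ap3m1 on the opposite strand. Tln1 and Fermt2, for talin and kindlin, the chief activators of integrins, fell 1.48- and 1.40-fold. With library totals neither passed (adjusted p = 0.0509 and 0.124), and Fermt2 did not pass without control 2 (adjusted p = 0.0594) or without control 3 and KO 1 (adjusted p = 0.0772). Rises were those of Flna, for the actin crosslinker filamin A, with 212.6 ± 12.2 CPM in controls and 504.7 ± 74.7 CPM in the KO at an adjusted p of 0.000136, of the LIM domain adaptor gene Lims2 (2.49-fold), of the focal adhesion gene Zyx (1.75-fold) and of the small GTPase gene Rap1a (1.53-fold). Rap1b, for the other Rap1 GTPase of the list and at a higher level than Rap1a, fell from 372.6 ± 30.4 to 256.4 ± 29.7 CPM (adjusted p = 0.00591). Tln2 and Ilk also rose. Tln2 did not pass without control 1 or control 2 (adjusted p = 0.0635 and 0.076), nor Ilk without control 1 or control 3 (adjusted p = 0.0582 and 0.0673). Ilk had only 16 to 61 counts per library and shares 2106 exon bases with Taf10 on the opposite strand, so its value is uncertain.

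Ligands of integrins were taken as a list of 25, of which 21 were tested, and 7 rose, 4 fell and 10 did not pass (median log2 fold change -0.0754). Thus 52.4% passed, against 45.2% of all genes tested. Fbn1, for fibrillin, rose from 21.7 ± 7.63 to 108.7 ± 14.2 CPM, Ccn1, for a matricellular protein that binds αv and α6 integrins, from 77.8 ± 12.8 to 212.8 ± 63.4, and Col4a1, for a basement membrane collagen bound by α1, from 2078 ± 83.8 to 3118 ± 551.5. Madcam1, a ligand of α4 with β7, rose from 0.0855 ± 0.0741 to 0.899 ± 0.275 CPM, a level near the limit of detection. Another of the 7 rises was that of Vtn, for vitronectin, a plasma ligand of αv integrins made by hepatocytes. It held 7.17, 11.03 and 13.4 CPM in controls and 58.65, 11.5, 17.1 and 26.9 CPM in KO 1 to 4, the KO order of the hepatocyte gene Alb (879.1, 228.9, 249.7 and 416.2 CPM). The groups overlapped in Vtn, it did not pass in 10 of 18 alternative fits (adjusted p up to 0.163), and without KO 1 its adjusted p was 0.0699. The part of hepatocyte transcript in its rise was not tested. Tgfb1, whose latent protein is activated by αv integrins, fell 1.85-fold, Mfge8, a ligand of αv integrins, 1.52-fold, and Lamb2 and Lama4, both for laminin chains, 1.41- and 1.39-fold. With library totals neither laminin gene passed (adjusted p = 0.0782 and 0.125), and leaving out control 2, or control 3 and KO 1, gave Lama4 an adjusted p of 0.0555 or 0.05003. Ccn1 was highest in KO 1 and lowest in KO 3, as was the median of the dissociation genes. Col4a1 did not pass without control 2, without control 3 or in lane 5 alone (adjusted p = 0.0724, 0.0647 and 0.061), where 3 ligand genes rose in each case, and 4 rose without KO 4. Of the α9 and α8 ligand genes in the list, Tnc, Svep1 and Npnt had at most 7 counts in any library and were not tested. Others were well above that level. Emilin1 held 990.2 ± 20.3 CPM in controls and 840.5 ± 166.9 CPM in the KO, and Vcam1 89.5 ± 36.9 and 110.2 ± 54.2 CPM. Neither passed (adjusted p = 0.246 and 0.564).

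**Figure D5:**
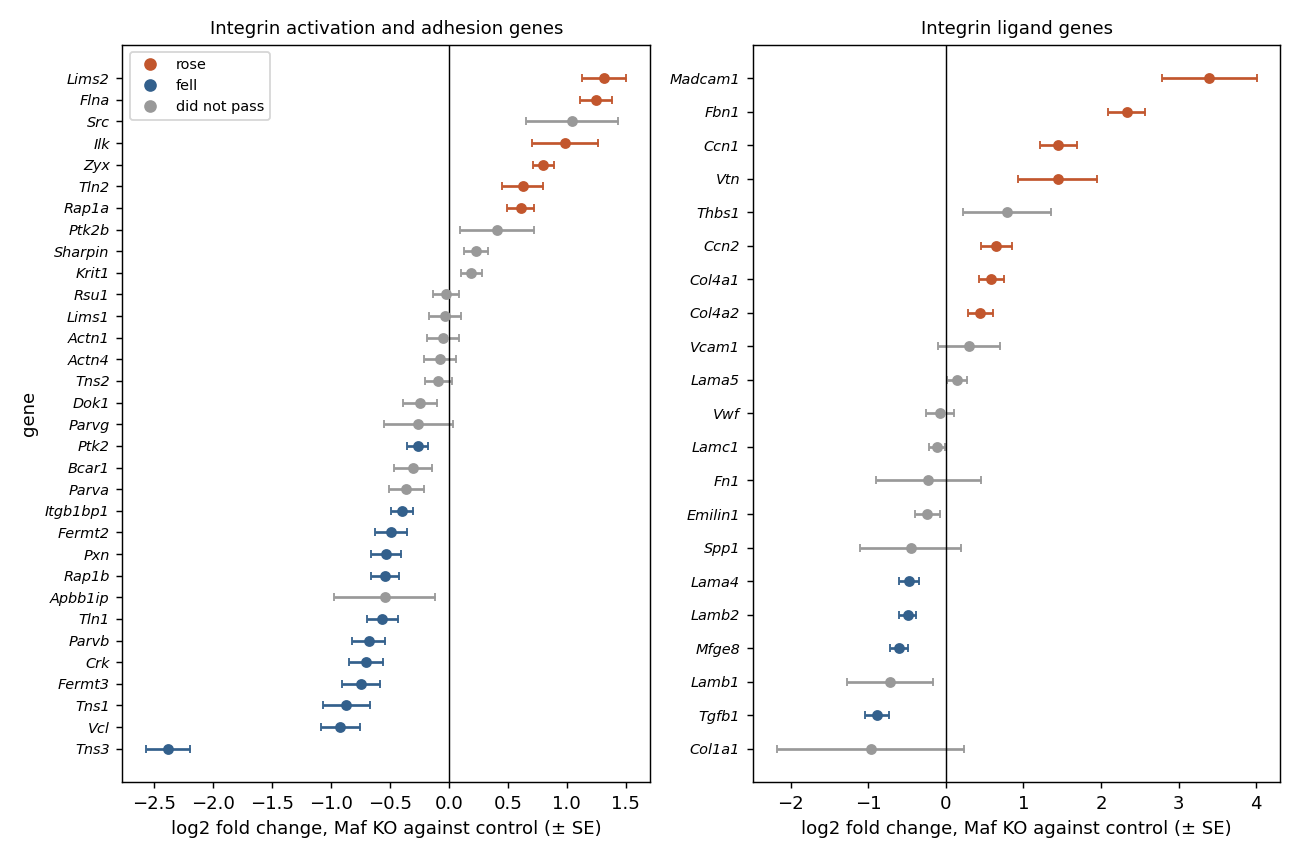
Log2 fold change with its SE (horizontal axes) of the 32 tested activation and adhesion genes (left) and 21 tested ligand genes (right), coloured by whether they rose, fell or did not pass. Tns3 (-2.38) stands apart on the left, and Madcam1 (3.39) and Fbn1 (2.33) lead on the right.

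The genes whose pattern over the 7 libraries was most like that of Itga9 and Itga6 were ranked among 9296 others by the root mean square difference in log2 CPM, each gene centred on its own mean. Nearest to Itga9 were the tetraspanin gene Tspan2 (0.0650), the guanine nucleotide exchange factor gene Dock8 (0.0881) and Ccdc152 (0.115). Tspan2 went from a mean of 122.8 CPM in controls to 19.0 in the KO. Nearest to Itga6 were the protein kinase D gene Prkd1 (0.122), the cationic amino acid transporter gene Slc7a1 (0.153) and the hemicentin gene Hmcn1 (0.158). The measure includes the difference between the groups.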

How the data were processed

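Polyadenylated RNA of liver endothelial cells, isolated by flow sorting per the labels' protocols, was sequenced in 3 control and 4 KO libraries. The authors deposited raw read counts per Ensembl gene, not normalized. FastQC 0.11.5, STAR 2.7.6a and build GRCm38 are named per the submitters' processing notes. Libraries were made with an unstranded or a stranded TruSeq kit, and which one each had, the counting tool, the annotation and the strand setting are not stated. Symbols and exon lengths came from GENCODE mouse release M21, and 52403 of 52636 IDs had a symbol.

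Total counts were 24772716 to 32960007 per library, and 3 counts correspond to 0.0873 to 0.132 CPM. Such limits cover counting error only. Libraries of one group all differed by more than sampling noise (chi-square over its degrees of freedom 13.2 to 96.1).

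Counts were filtered with filterByExpr (minimum 10, total 15) in edgeR 4.0.16 under R 4.3.3, given TMM factors (trimmed mean of M-values) and tested without covariate by the quasi-likelihood F-test with Benjamini-Hochberg adjustment at 0.05. SE is the absolute log2 fold change over the square root of F. CPM values are TMM-scaled, with errors as SD. Alternatives included DESeq2 1.42.0, limma-voom (limma 3.58.1), other scalings and filters, the lane, a replicate block and leaving out libraries. In simulated counts for the 15512 genes of this comparison, edgeR found 90 of the 100 genes set to a 2-fold change and all 100 set to a 4-fold change. False calls made up 14 of 204. Only those genes were changed, evenly up and down, and none of them was of low level. In the data 45.2% of genes passed. The simulation therefore cannot tell how calls fare for genes as low as Itga4 and Itgb5, or when a large share of genes changes.

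The subunit genes and lists were chosen with earlier results of these data known. Named were all subunits, up to 4 genes per direction of each other list by smallest p, and the 3 genes most alike in pattern to the subunit with the smallest adjusted p in each direction. Tln1, Fermt2, Tln2, Ilk, Rap1b, Tnc, Svep1, Npnt, Emilin1, Vcam1, Vtn, Fn1, Itgb2, Itgb4 and Itgax were named outside that rule, after their values were seen. So were the marker genes given by name (Pf4, Ppbp, Gp5, Gp9, Gp1bb, Gp1ba, Tubb1, F2rl3, Alox12, Egfl7 and Alb).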

Additional observations from a re-analysis of the deposited data

Results flagged for a closer look

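In KO 3, Itga2b stood at 23.7 CPM, apart from the other KO libraries at 31.0 to 31.8 CPM, by a gap large against their range (Dixon's test). KO 3 is the only KO library of lane 4. It was still above every control. The test was run on 23 integrin genes in the 4 KO libraries, and chance flags about 1 in 20 such groups.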

How the results depend on the processing

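All 6 subunit genes that passed kept direction and passed under each of 18 alternatives (largest adjusted p 0.0252, for Itgb1). The number that rose was 2 or 3 and the number that fell 4 or 5. All genes called ranged from 4963 (without control 2) to 8349 (library totals), where 76.3% of calls were rises, against 50.8% with TMM and 63.4% with upper-quartile factors. Samples with the same number correlated in their deviations by -0.0133, 0.162 and 0.0674, against -0.176 to 0.0781 for those with different numbers. Correlations this weak, over so few libraries, cannot decide whether the numbers pair the samples. With the replicate number as a block (KO 4 left out) 5055 genes were called, 2 subunits rose and 4 fell, and 3 ligand genes rose; Col4a1 (adjusted p = 0.0717), Lama4 (0.07098), Vtn (0.163), Itga10 (0.113), Tln1 (0.059) and Fermt2 (0.0529) did not pass there. Ligand rises, 7 in all, were also 3 in lane 5 alone and 4 without control 3 and KO 1, chosen after seeing the data, and 3 to 6 without single libraries. Library totals left 7 falls of activation genes and 2 of ligands. Rises of other subunits, 1 in all, were 2 with upper-quartile factors, no filter, lane as covariate or lane 5 alone, 3 with library totals, 0 with limma-voom and 0 to 1 without single libraries. With longest transcripts, also added later, the share of Itga9 in controls was 42.0%, and Itga5 and Itga6 took 16.6 and 8.25% in controls and 30.0 and 39.9% in the KO. The log2 fold change of Fn1 (-0.22) turned to 0.0477 with library totals, 0.573 with limma-voom, 0.201 in lane 5 alone and 0.25 with the block, and ran from -0.77 to 0.213 without single libraries, where it fell without control 1 (adjusted p = 0.0401) and turned positive at 0.0809 without control 3. Without single libraries, that of Itgb2 ran from -1.12 to 0.45 and that of Itgax from -1.44 to 0.619, positive only without control 2. The cause of these moves was not tested. Counts per library were 23 to 44 for Itga4, 59 to 124 for Itgb5 and at most 4 for the untested subunits.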

Other observations

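Itgb2 and Itgax, both genes of leukocyte integrins, were low and varied widely within each group. Itgb2, the shared beta chain gene of leukocytes, held 0.910, 11.95 and 4.74 CPM in controls 1 to 3 and 2.65, 6.35, 2.04 and 4.31 CPM in KO 1 to 4 (adjusted p = 0.488, edgeR). Itgax, for the chain of dendritic cells and some macrophages, held 0.109, 3.96 and 1.18 CPM in controls and 0.460, 1.99, 0.0582 and 1.39 CPM in the KO (adjusted p = 0.527). Control 2 was highest in both, and it was also highest in the summed level of 12 macrophage markers, at 335.4 CPM against 102.3 and 167.9 CPM in controls 1 and 3. Without control 2 both had a log2 fold change above 0 (0.45 and 0.619) in place of one below. By contrast Itgae, for the chain of intraepithelial lymphocytes, lay between 1.83 and 2.29 CPM in controls and between 2.54 and 3.69 CPM in the KO, without overlap, and did not pass (adjusted p = 0.0847). These genes were chosen after their values were seen.

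The fibronectin gene Fn1, a ligand of α5 with β1, held 4.66 CPM in control 1 against 80.1 and 72.9 CPM in controls 2 and 3 and 29.4 to 61.5 CPM in the KO libraries, and it did not pass (adjusted p = 0.806, edgeR). Without control 1 it fell, with a log2 fold change of -0.77 (adjusted p = 0.0401). It was singled out after its values were seen.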
